A study of Mus musculus with 7 samples.

Results

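Serpins are a family of protease inhibitors and of related proteins that have lost that activity, and 40 serpin genes were read here out of 18193 genes on 7 mouse arrays of sorted skin tumour cells. The members were all genes whose symbol joined Serpin, a clade letter from a to i and a number, each read on its brightest probe set among those annotated to a single gene. They comprised 18 genes of clade b and 22 of the other clades, of which 14 belonged to clade a, 2 each to clades f and i, and 1 each to clades c, d, g and h. The tumours were grown in mouse skin with DMBA and TPA, a mutagen and a tumour promoter, and cells that displayed both CD34 and Epcam were sorted from them. RNA came from malignant carcinomas, with 1 array whose title carried GFP and 3 arrays without it, and from benign papillomas, with 1 GFP array and 2 without. All 7 arrays shared the DMBA treatment and the CD34 sort in their labels, and the sample descriptions placed the gene name Nr2f2 before the tumour type without saying whether that gene had been altered. The labels explained neither GFP nor whether replicates came from separate mice, so every p-value below measures only the spread between these arrays.

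A serpin traps its target protease by offering a reactive loop as bait and folding around the enzyme when the loop is cut. Clade b serpins mostly stay inside the cell, where they restrain cathepsins, granzymes and other proteases that leak from lysosomes or arrive from immune cells, and several are abundant in stratified epithelia such as the epidermis. The other clades are mostly secreted and act on coagulation, fibrinolysis, complement and inflammation, although a few, such as the collagen chaperone Serpinh1, do not inhibit proteases at all. In mouse, clade b genes lie in a cluster on chromosome 1, which held 7 members here, and in a cluster on chromosome 13, which held 11.

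The 2 GFP arrays stood apart from the other 5 before any serpin was considered. Probe sets for the 3' end of the control transcript Gapdh exceeded those for its 5' end by 3.19 log2 units in both GFP arrays, against -0.04 to 0.06 in the untagged arrays. Cd34 lay above the median gene in all 7 arrays, at 11.73 and 11.66 in carcinoma GFP and papilloma GFP against 8.76 to 10.80 in untagged arrays, and Epcam read 9.59 and 8.28 in those GFP arrays against 10.52 to 11.97. Of 12 endothelial markers all 12 were higher in the GFP arrays, where their mean level lay between 10.93 and 11.04 against 5.40 to 5.91 in untagged arrays, and all 10 fibroblast markers were higher, at 11.23 to 12.05 against 5.85 to 8.04. Higher calls were also made for 5 of 7 pericyte and smooth muscle, 5 of 8 myeloid, 4 of 8 lymphoid and mast cell and 2 of 6 melanocyte markers, whereas 7 of 11 basal keratinocyte markers were lower, at 10.65 to 10.77 against 11.65 to 12.23. Among 14 markers of differentiating keratinocytes, 1 was called in each direction (14.3%, against 19.8% of all genes). Over all genes 11.9% were called higher and 7.93% lower. The lymphoid and mast cell and the melanocyte markers were all dim, with means over the 7 arrays not above the median gene. The part that these cells, the Gapdh difference or the tag itself had in the serpin differences was not tested, and all of these moved with the GFP label. In bulk RNA, fewer cells of a type and less RNA per cell cannot be told apart.

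Levels are RMA values on a log2 scale, on which the median gene averaged 6.64 over the arrays. Of the 40 serpins 11 lay above that level, 7 of clade b (Serpinb1a, Serpinb2, Serpinb5, Serpinb6a, Serpinb6e, Serpinb8 and Serpinb9) and 4 of the other clades (Serpina3n, Serpinf1, Serping1 and Serpinh1). The remaining 29 averaged less than the median gene over the 7 arrays, and among these only Serpina1b passed the test below. Probe sets differ in how brightly they read a given amount of RNA, so levels are compared within a gene and not between genes. Differences between GFP and untagged arrays were estimated within tumour type by limma and called at a Benjamini-Hochberg adjusted p under 0.05 over all 18193 genes.

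In the GFP comparison 7 of 40 serpins were called (17.5%), against 19.8% of all genes. Of these, 5 were higher in GFP arrays (Serpina1b, Serpina3n, Serpinb9, Serping1 and Serpinh1), where 11.9% of all genes were, and 2 were lower (Serpinb5 and Serpinb8), where 7.93% of all genes were. By clade the calls numbered 3 of 18 in clade b (16.7%) and 4 of 22 in the others (18.2%), so the share of serpins called stood near that of all genes in each. The median difference was -0.18 in clade b and 0.01 in the other clades, beside -0.05 over all genes. With 2 against 5 arrays, an exact two-sided permutation test of a single gene cannot go below p = 0.0952 over its 21 regroupings.

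**Figure D1:**
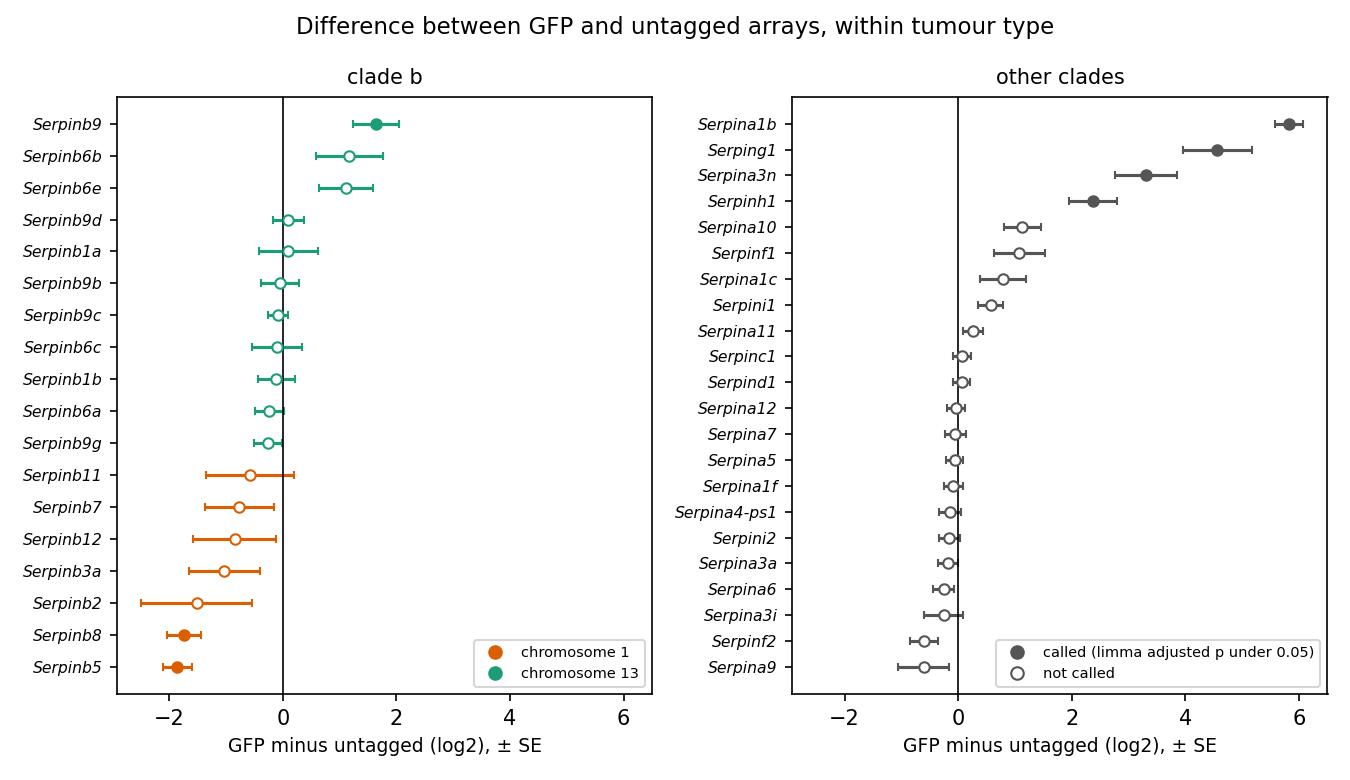
Difference between GFP and untagged arrays within tumour type for all 40 serpins (log2, x axis), with bars of 1 standard error from limma and filled points for the 7 called members. The 7 clade b genes on chromosome 1 all lie left of 0, and the 4 called members of the other clades lie furthest right, led by Serpina1b at 5.82.

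All 7 clade b members on chromosome 1 had a negative difference between GFP and untagged arrays (median -1.03), beside 54.7% of all genes. All 11 basal keratinocyte markers were negative too, with a median of -1.31. Of the 14 markers of differentiating keratinocytes 11 were negative, with a median of -0.24, and 1 was called in each direction. This grouping by chromosome was chosen after the values were seen, and it is described here without a test. Of the 7, 2 were called lower. All 7 remained negative when any array was left out and under each other scaling, weighting or probe set rule applied to all genes, and the 3 of them above the median gene were negative where dimmer genes were left out.

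Serpinb5, or maspin, is a non-inhibitory serpin of epithelial cells that is known for its loss in some carcinomas. Its level was 9.51 in the carcinoma GFP and 9.49 in the papilloma GFP array, against 11.41, 11.74 and 10.98 in untagged carcinomas and 11.58 and 11.09 in untagged papillomas. The 2 GFP arrays were nearly alike and lay below every untagged array. The means were 9.50 ± 0.02 (SD, n = 2) in GFP arrays and 11.36 ± 0.32 (SD, n = 5) in untagged arrays, a difference of -1.86 (SE 0.25, limma adjusted p = 0.00363), and the exact permutation p was 0.0952, as for each of the 7 called members. The size of the drop depended on the probe set: the other 3 sets read -2.33, -1.05 and -0.37, and on the last of these, a set of the x kind whose probes can also match other transcripts, the GFP arrays at 9.94 and 9.49 fell inside the untagged range of 9.49 to 10.72. Without carcinoma GFP the call was lost (limma adjusted p = 0.0716, difference -1.85).

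Serpinb8 is an intracellular inhibitor whose human counterpart binds furin. It read 5.89 in the carcinoma GFP and 5.77 in the papilloma GFP array, against 6.94, 7.74 and 7.94 in untagged carcinomas and 7.73 and 7.51 in untagged papillomas. Both GFP arrays again fell below all untagged arrays and below the median gene. The difference was -1.74 (SE 0.29, limma adjusted p = 0.00776). It was -1.55 on the second probe set, where the groups overlapped, with carcinoma GFP at 5.04 and untagged carcinoma 3 at 4.82. The call was lost without carcinoma GFP (limma adjusted p = 0.0978) and without papilloma GFP (0.0853).

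Serpinb2, which inhibits urokinase and tissue plasminogen activator and is made by keratinocytes and macrophages, spread over a wide range. Its level was 8.96 in the carcinoma GFP and 8.81 in the papilloma GFP array, against 11.90, 11.70 and 9.70 in untagged carcinomas and 11.25 and 7.98 in untagged papillomas. Untagged papilloma 2 lay below both GFP arrays, so the groups overlapped, and the difference of -1.52 (SE 0.98) was not called (limma adjusted p = 0.344). With limma's array weights it was called (-2.22, adjusted p = 0.0156). The other 4 members on this chromosome were dim, and none was called. Serpinb3a, a relative of the human squamous cell carcinoma antigens, differed by -1.03 ± 0.62, Serpinb12 by -0.85 ± 0.73, Serpinb7 by -0.77 ± 0.61 and Serpinb11 by -0.58 ± 0.78 (log2, ± SE), and each of these 4 overlapped between GFP and untagged arrays. For Serpinb3a, Serpinb12 and Serpinb7 both GFP levels sat below the untagged median. Serpinb3a read 5.91 and 4.99 in GFP arrays against 5.01 to 7.27 in untagged arrays. Serpinb12, an inhibitor of trypsin-like proteases, read 4.597 and 3.86 against 3.62 to 6.65. Serpinb11 read 5.63 and 5.299 in GFP arrays against 4.91 to 7.36 in untagged arrays, whose median was 5.38. Its carcinoma GFP array thus lay above that median, and 2 of the 5 untagged arrays, carcinoma 1 and papilloma 2, stood well above the rest. Serpinb7 read 3.63 and 3.31 against 3.53 to 5.77.

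The promoters of the chromosome 1 members are shown because the differences of the 7 genes had the same sign. Sequences are RefSeq windows of 300 bases from GRCm38.p6, from 250 bases before to 50 after the gene's start, and 34 of the 40 members had such a window. Matches to AP-1 (TGANTCA), the motif of the Fos and Jun factors that TPA is known to activate, stand in capitals for Serpinb5 (chr1:106860925-106861224, plus strand), Serpinb8 (chr1:107589756-107590055, plus strand) and Serpinb2 (chr1:107511173-107511472, plus strand).
Serpinb5: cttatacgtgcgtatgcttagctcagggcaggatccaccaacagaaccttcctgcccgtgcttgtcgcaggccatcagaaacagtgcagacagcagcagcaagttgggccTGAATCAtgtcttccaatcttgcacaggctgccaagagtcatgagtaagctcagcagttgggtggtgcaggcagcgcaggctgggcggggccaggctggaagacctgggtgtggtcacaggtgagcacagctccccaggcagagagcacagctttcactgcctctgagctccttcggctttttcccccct
Serpinb8: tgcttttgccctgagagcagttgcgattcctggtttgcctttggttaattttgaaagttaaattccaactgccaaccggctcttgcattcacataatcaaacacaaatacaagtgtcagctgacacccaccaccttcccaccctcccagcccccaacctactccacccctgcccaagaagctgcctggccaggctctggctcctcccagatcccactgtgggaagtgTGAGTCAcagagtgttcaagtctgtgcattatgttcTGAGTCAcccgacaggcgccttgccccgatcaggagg
Serpinb2: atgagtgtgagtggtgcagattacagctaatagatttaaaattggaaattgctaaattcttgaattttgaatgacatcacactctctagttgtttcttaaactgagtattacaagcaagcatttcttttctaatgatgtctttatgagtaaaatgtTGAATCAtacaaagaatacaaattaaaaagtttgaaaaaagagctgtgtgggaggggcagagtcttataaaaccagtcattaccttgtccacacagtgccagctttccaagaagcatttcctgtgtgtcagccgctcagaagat

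On chromosome 1, the windows of 6 of 7 clade b genes held AP-1, as did 0 of 10 windowed clade b genes on chromosome 13 and 2 of 17 in the other clades, beside 8.97% of all 27025 genes with a window and 7.81% of all 32851 windows. Counted from the gene's start, the matches began at -140 in Serpinb5 (TGAATCA), at -23 and 14 in Serpinb8 (TGAGTCA both times) and at -94 in Serpinb2 (TGAATCA). Serpinb7 had TGAGTCA and Serpinb12 TGATTCA, each at -45, and Serpinb11 had matches at -181 and -76, while no such letters stood in the Serpinb3a window. Outside chromosome 1 the 2 windows with a match belonged to Serpina1b and Serpina1c, at -240 and -239. AP-1 was 1 of 18 motifs searched on both strands, it was put in capitals after the counts of all 18 were seen, and a match describes letters only. The 7 genes are related neighbours in a cluster, so their windows are not independent draws to set against the share of all genes. The others were the interferon-related GAS (TTCNNNGAA) and the interferon element (GAAANNGAAA), heat shock elements of 3 units (GAANNTTCNNGAA) and of 2 (GAANNTTC), paired p53 sites (CATGNNNNNCATG), the CACCC box (CCACACCC), the GC box (GGGCGG), CRE (TGACGTCA), the TATA box (TATAAA), HNF1 (GTTAATNATTAAC), a loose and a strict NF-kB motif (GGGNNNNNCC, GGGAANTTCC), the E box (CANNTG), ETS (CAGGAAGT), C/EBP (TTGCGCAA), TEAD (GGAATG) and p63 (CATGTCNNNACATG). Letters of several overlap, since every 3-unit heat shock element holds the 2-unit one and a strict NF-kB match is also a loose one. Of these, the E box also stood in 6 of the 7 chromosome 1 windows, where 75% of all genes hold it, and the TATA box in 4 of 7, where 15.7% do. The other 15 motifs occurred in 0 to 2 of the 7 windows, and the whole genome's shares for them ran from 0.0111% of genes for HNF1 to 53.5% for the loose NF-kB motif.

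**Figure D2:**
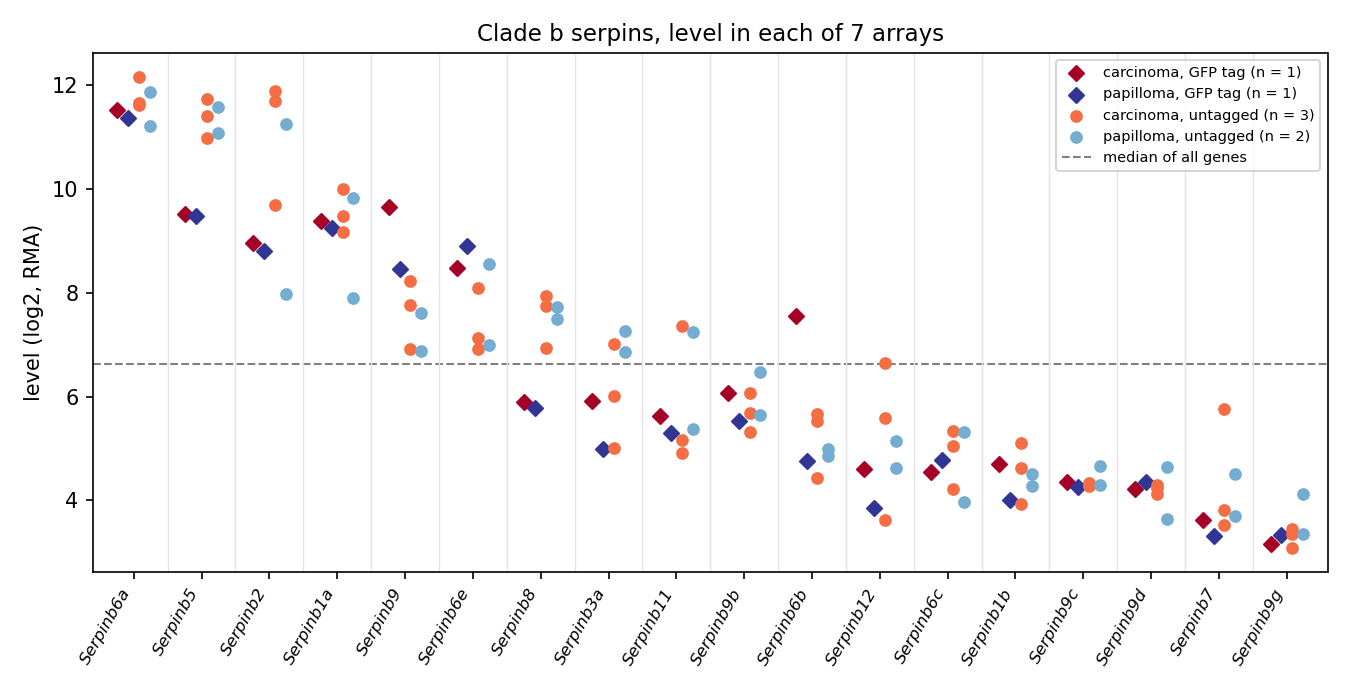
Level (RMA, log2, y axis) of each clade b serpin in every array, ordered by mean, with diamonds for the GFP arrays and circles for the untagged arrays of each tumour type, and the median of all genes as a dashed line. The GFP diamonds of Serpinb5 and Serpinb8 lie below all untagged circles, those of Serpinb9 lie above all of them, and those of Serpinb6a lie among its untagged circles.

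On chromosome 13 the clade b genes did not share a direction, with 5 higher and 6 lower in GFP arrays (median -0.05), and 1 was called. That member was Serpinb9, the inhibitor of granzyme B that protects cells from the contents of cytotoxic granules. It read 9.65 in the carcinoma GFP and 8.47 in the papilloma GFP array, against 8.24, 7.78 and 6.92 in untagged carcinomas and 7.62 and 6.88 in untagged papillomas. The papilloma GFP array exceeded the highest untagged array by a small margin, and the carcinoma GFP array by a wide one. The means were 9.06 ± 0.84 (SD, n = 2) in GFP arrays and 7.49 ± 0.58 (SD, n = 5) in untagged arrays, and the difference within tumour type was 1.64 (SE 0.41, limma adjusted p = 0.0334), with 1.33 on the second probe set. Of immune cell markers, 5 of 8 myeloid and 4 of 8 lymphoid and mast cell ones were called higher, against 11.9% of all genes. Ptprc, which marks leukocytes, read 8.96 and 8.297 in GFP arrays against 4.51 to 6.13 in untagged arrays. The macrophage marker Cd68 differed by 0.06 and the T cell marker Cd8a by -0.23, and neither was called. The part of such cells was not tested. The call was lost without carcinoma GFP (limma adjusted p = 0.364), without papilloma GFP (0.103), without carcinoma 2 (0.0712), without papilloma 2 (0.0616) and on the mean of its probe sets (0.0678). Its promoter (chr13:33004291-33004590, plus strand) is shown since it is the called member of this cluster, with the interferon element, read on the opposite strand and starting at -46, in capitals. In all, 3.99% of genes with a window hold this motif, and 2 of 10 windowed members on chromosome 13 did, the second being Serpinb6a.
Serpinb9: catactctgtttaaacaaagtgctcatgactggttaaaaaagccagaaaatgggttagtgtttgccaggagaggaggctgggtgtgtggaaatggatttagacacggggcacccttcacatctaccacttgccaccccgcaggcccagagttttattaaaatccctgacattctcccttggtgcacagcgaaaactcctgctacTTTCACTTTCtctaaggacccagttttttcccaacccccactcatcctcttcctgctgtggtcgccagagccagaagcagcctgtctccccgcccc

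Serpinb6a is a widely made intracellular inhibitor. It read 11.53 in the carcinoma GFP and 11.37 in the papilloma GFP array, against 11.63, 11.67 and 12.17 in untagged carcinomas and 11.87 and 11.22 in untagged papillomas. Both GFP arrays lay inside the range of the untagged ones, and the difference of -0.24 (SE 0.25) was not called (limma adjusted p = 0.572). Serpinb1a, the inhibitor of neutrophil elastase, had levels of 9.39 in the carcinoma GFP and 9.26 in the papilloma GFP array, against 10.001, 9.17 and 9.48 in untagged carcinomas and 9.84 and 7.90 in untagged papillomas. Its groups overlapped and its difference was 0.10 (SE 0.52, limma adjusted p = 0.921), with a negative sign under both other scalings (-0.14 with centring, -0.028 with quantile normalization).

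Serpinb6e stood at 8.49 in the carcinoma GFP and 8.90 in the papilloma GFP array, against 6.92, 7.14 and 8.10 in untagged carcinomas and 7.003 and 8.55 in untagged papillomas. Untagged papilloma 2 lay between the GFP arrays, and the difference of 1.11 (SE 0.48) was not called (limma adjusted p = 0.165), although it was with array weights (1.36, adjusted p = 0.0069). It was read on a set of the x kind only, so related Serpinb6 copies may contribute to it. Among the 7 dimmer genes on this chromosome none was called, and their mean levels ran from 3.41 for Serpinb9g to 5.83 for Serpinb9b. Serpinb6b had the widest spread of these, at 7.56 in the carcinoma GFP and 4.77 in the papilloma GFP array, against 4.44 to 5.67 in untagged arrays, so that a single GFP array stood high.

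Of 23 measured proteases of the epidermis and targets of clade b serpins, 3 were called higher and 4 lower in GFP arrays (30.4% against 19.8% of all genes), with a median difference of -0.35. The cysteine proteases Ctsk and Ctss, known from bone-resorbing and antigen-presenting cells, were higher, by 4.78 (SE 0.36, limma adjusted p = 0.000315) and 3.71 (SE 0.94, limma adjusted p = 0.0354). The kallikrein Klk8, a trypsin-like protease of the upper epidermis, read 9.11 and 9.29 in carcinoma GFP and papilloma GFP against 10.71 to 11.37 in untagged arrays, a difference of -1.94 (SE 0.23, limma adjusted p = 0.00207). Casp1, which activates interleukin 1 beta, differed by -1.59 (SE 0.26, limma adjusted p = 0.00698). Ctsl, a lysosomal protease that squamous cell carcinoma antigens inhibit, was bright in every array and differed by 0.28 (SE 0.20, limma adjusted p = 0.385).

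**Figure D3:**
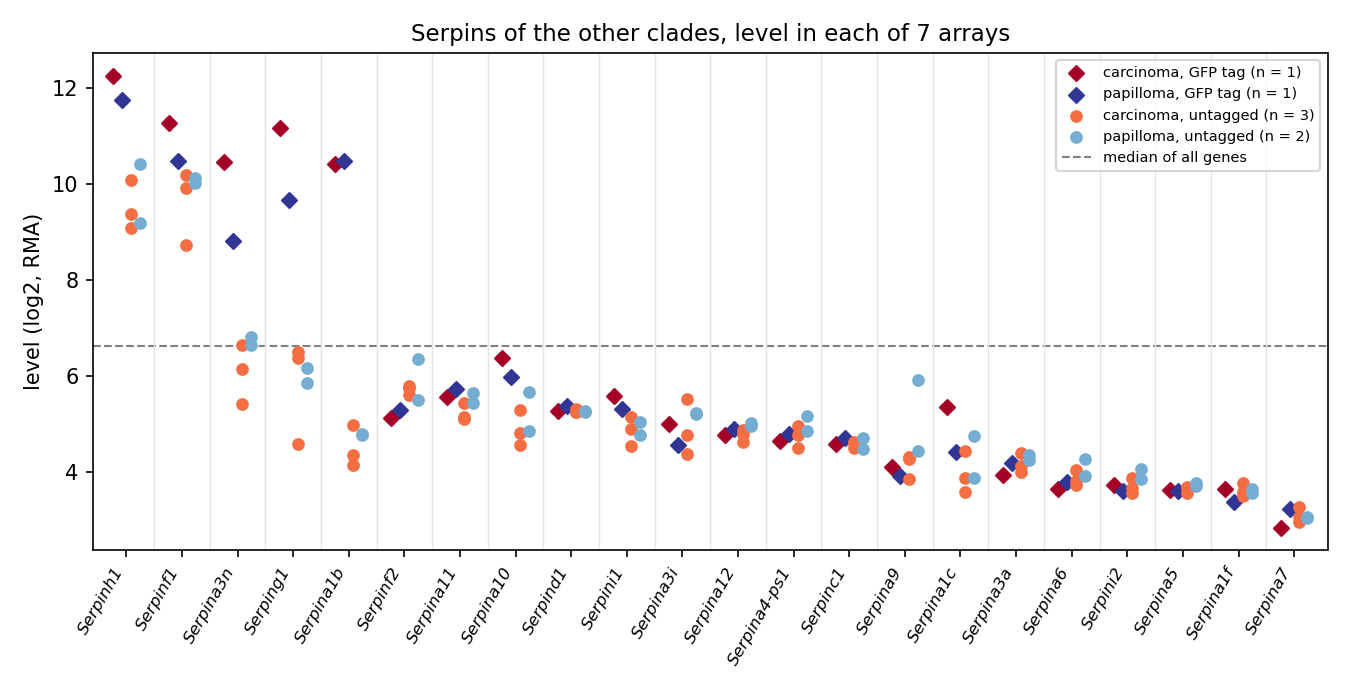
Level (RMA, log2, y axis) of each serpin outside clade b in every array, ordered by mean, with diamonds for the GFP arrays and circles for the untagged arrays of each tumour type, and the median of all genes as a dashed line. Serpina1b, Serping1, Serpina3n and Serpinh1 have both GFP diamonds above every untagged circle, and 17 of the 22 genes stay under the dashed line in all 7 arrays.

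Outside clade b, 4 of 22 members (18.2%) were called higher in GFP arrays, with differences from 2.38 to 5.82, beside 11.9% of all genes. None was called lower, beside 7.93% of all genes. By sign alone, 11 of the 22 differences were positive and 11 negative. Serping1, the C1 inhibitor that restrains complement and kallikrein, read 11.18 in the carcinoma GFP and 9.68 in the papilloma GFP array, against 6.38, 6.50 and 4.58 in untagged carcinomas and 5.85 and 6.17 in untagged papillomas. It was thus under the median gene in all 5 untagged arrays and far above it in both GFP arrays. The means were 10.43 ± 1.07 (SD, n = 2) in GFP arrays and 5.90 ± 0.78 (SD, n = 5) in untagged arrays, and the difference within tumour type was 4.56 (SE 0.61, limma adjusted p = 0.00341). Without carcinoma GFP it was 3.66 and no longer called (limma adjusted p = 0.0748). Beside these 4 serpins stand the median differences of the 12 endothelial markers, 5.496, and of the 10 fibroblast markers, 4.22, whose part in them was not tested.

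Serpinh1 is the endoplasmic reticulum chaperone of collagen. It read 12.27 in the carcinoma GFP and 11.77 in the papilloma GFP array, against 9.38, 10.10 and 9.09 in untagged carcinomas and 9.19 and 10.43 in untagged papillomas. Every array lay above the median gene, and both GFP arrays exceeded the untagged ones. The difference was 2.38 (SE 0.43, limma adjusted p = 0.0101) on a set of the x kind and 1.80 on its second set, and the call was lost without carcinoma GFP (limma adjusted p = 0.175) and without papilloma GFP (0.0515). Of 18 measured genes for collagens and their folding, 13 were called higher and 0 lower in GFP arrays (72.2% against 19.8%), with a median difference of 3.20. These were all 9 collagens, with differences from 3.91 to 6.42, and 4 of 9 folding genes (P4hb, Plod1, Plod3 and P3h1), while P4ha1, P4ha2, Plod2, Crtap and Ppib were not called. Among them Col4a1, a basement membrane collagen, read 13.85 and 13.77 in carcinoma GFP and papilloma GFP against 5.202 to 8.98 in untagged arrays, a difference of 6.42 (SE 0.91, limma adjusted p = 0.00417). Col4a2 differed by 5.95, Col6a1 by 5.35, Col5a2 by 5.25 and Col1a1, the chain of fibrillar collagen I, by 4.74. The lysyl hydroxylase Plod2 differed by -0.23 (SE 0.66, limma adjusted p = 0.85).

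Serpina3n, a secreted inhibitor of granzyme B and elastase that is raised in the acute phase response, read 10.46 in the carcinoma GFP and 8.83 in the papilloma GFP array, against 5.43, 6.65 and 6.15 in untagged carcinomas and 6.65 and 6.81 in untagged papillomas. Both GFP arrays were above all others, and the carcinoma one was the higher. The difference was 3.31 (SE 0.54, limma adjusted p = 0.0073), with 2.09 and no call without carcinoma GFP (limma adjusted p = 0.0909). Serpina1b, a mouse copy of alpha-1 antitrypsin that the liver makes in bulk, read 10.43 in the carcinoma GFP and 10.49 in the papilloma GFP array, against 4.15, 4.97 and 4.36 in untagged carcinomas and 4.78 and 4.80 in untagged papillomas. It was far under the median gene in the untagged arrays and its GFP values nearly coincided. The means were 10.458 ± 0.045 (SD, n = 2) in GFP arrays and 4.61 ± 0.35 (SD, n = 5) in untagged arrays, and the difference of 5.82 (SE 0.25, limma adjusted p = 4.25e-05) was the largest of the 40 members and stayed called in every setting that tested it. Both of its probe sets are of the x kind and agreed in size (5.82 and 6.16), and the Serpina1 genes are near-identical copies, so the level cannot be assigned to Serpina1b alone.

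Serpinf1, the pigment epithelium-derived factor that restrains vessel growth, read 11.28 in the carcinoma GFP and 10.50 in the papilloma GFP array, against 8.74, 10.19 and 9.92 in untagged carcinomas and 10.03 and 10.14 in untagged papillomas. Both GFP arrays were above all untagged ones, yet the difference of 1.08 (SE 0.45) was not called (limma adjusted p = 0.156), and its second probe set gave 0.25. With array weights it was called (limma adjusted p = 0.0447). The other 17 members of these clades were dim and not called, with means from 3.07 for Serpina7 to 5.64 for Serpinf2. Serpina10, which inhibits coagulation factor X with protein Z, came closest, at 6.39 and 5.98 in GFP arrays against 4.56 to 5.67 in untagged arrays, a difference of 1.13 (SE 0.33, limma adjusted p = 0.0562). Serpini1, or neuroserpin, which inhibits tissue plasminogen activator, read 5.59 and 5.31 against 4.54 to 5.15, and Serpinf2, the inhibitor of plasmin, read 5.14 and 5.31 against 5.51 to 6.36, with limma adjusted p of 0.128 and 0.147. Serpinc1, or antithrombin, read 4.59 and 4.72 in GFP arrays against 4.48 to 4.72 in untagged arrays, and Serpind1, or heparin cofactor II, read 5.28 and 5.39 against 5.26 to 5.32. The carriers of steroid and thyroid hormones, which do not inhibit proteases, were likewise dim, with Serpina6 at 3.66 and 3.799 against 3.74 to 4.28 and Serpina7 at 2.85 and 3.23 against 2.95 to 3.27. Genes whose arrays did not overlap by tag numbered 11 of 40 members, 8 above and 3 below, against 40.9% of all genes, and in addition to the called members these were Serpina10, Serpinf1 and Serpini1 above and Serpinf2 below.

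**Figure D4:**
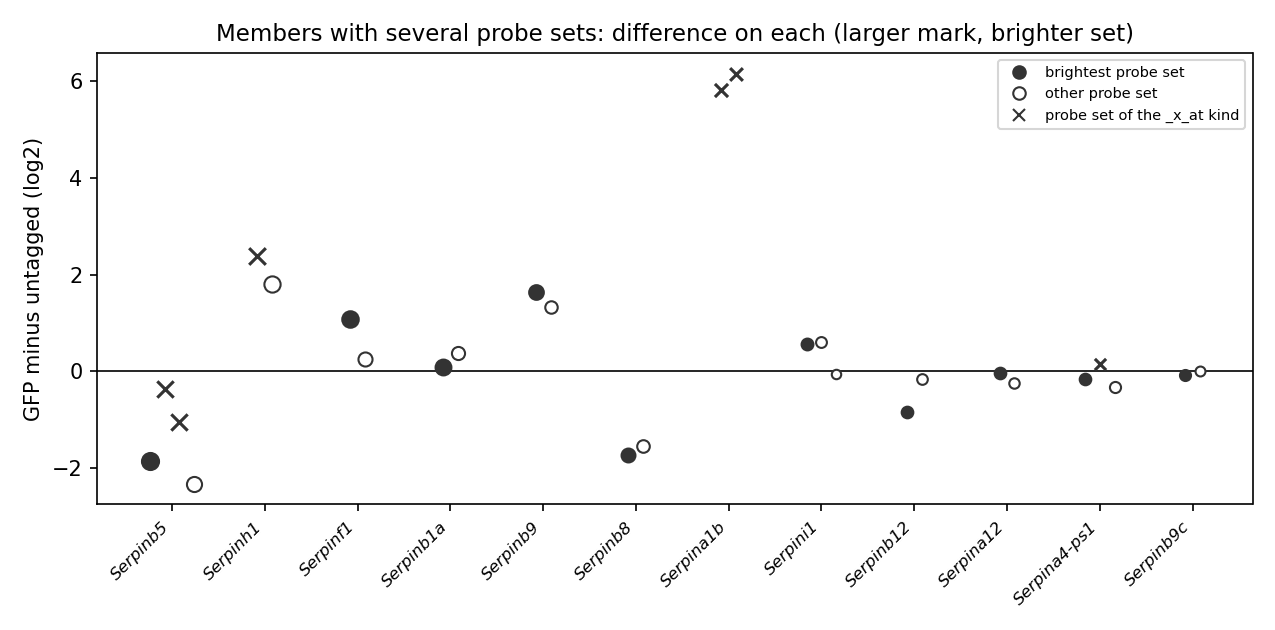
Difference between GFP and untagged arrays (log2, y axis) on every probe set of the 12 members that have several, with larger marks for brighter sets and crosses for sets of the x kind. All sets of Serpinb5, Serpinb8, Serpinb9, Serpinh1 and Serpina1b share a sign, while those of Serpinb5 run from -2.33 to -0.37.

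Among 32 measured targets and receptors of the secreted serpins, 25 were not called, 6 were called higher and 1 lower in GFP arrays, a share of 21.9% that stood near the 19.8% of all genes. The lower gene was Plau, which encodes urokinase, a target of Serpinb2. It read 5.59 in the carcinoma GFP and 4.80 in the papilloma GFP array, against 8.61, 9.24 and 8.37 in untagged carcinomas and 8.69 and 7.27 in untagged papillomas, a difference of -3.17 (SE 0.41, limma adjusted p = 0.00291). Plat, the tissue plasminogen activator of vessels, went the other way, at 10.67 and 10.06 in carcinoma GFP and papilloma GFP against 5.63 to 7.23 in untagged arrays, a difference of 3.82 (SE 0.52, limma adjusted p = 0.00347). Plaur, the urokinase receptor, differed by 0.07 (SE 0.49, limma adjusted p = 0.938). The thrombin receptor F2r (5.51) and the complement protease Masp1 (4.17) were called higher, with limma adjusted p of 0.000578 and 0.000678. Among 21 other inhibitors of epithelium, 5 were called higher and 4 lower (42.9%), including Tfpi, the inhibitor of tissue factor, at 3.52, the metalloprotease inhibitors Timp3 at 2.61 and Timp2 at 2.55, and the whey acidic protein family member Wfdc2 at -2.46 (limma adjusted p = 0.000217, 0.0459, 0.0138 and 0.0477).

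Between tumour types no serpin was called, and no gene of the array was (0.0%). Carcinoma was compared with papilloma over all 7 arrays by limma without covariates, and at an unadjusted p under 0.05 the same fit held 112 genes but 0 of the 40 members, whose smallest p was 0.159. This fit left the difference by tag in the spread within each type, so the 0 of 40 does not show equal levels. The SE of Serpina1b was 2.02, against 0.295 on the untagged arrays alone, while that of Serpinb2 was 1.02 against 1.11. With 4 against 3 arrays the exact two-sided permutation test cannot go below p = 0.0571 over 35 regroupings, and over the 12 members given in full it ranged from 0.286 to 0.914. The fits with the tag as a covariate, with the replicate label as a block and on untagged arrays alone held 331, 500 and 308 genes at an unadjusted p under 0.05 and again called 0. Each tumour type held 1 GFP array, so differences in the untagged arrays and in the GFP pair are given beside the pooled ones.

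Of the 18 clade b members, 12 had a higher mean in carcinoma, with a median difference of 0.16 beside -0.02 over all genes, so that 33.3% of them and 53.1% of all genes had a lower mean there. The count depended on the arrays, as 7 of 18 were higher without carcinoma 2, where the median turned to -0.038, and 10 of 18 without papilloma GFP and on the mean of all probe sets of a gene (medians 0.08 and 0.054). Serpinb2 had the largest difference of the 40, with means of 10.56 ± 1.46 in carcinoma and 9.34 ± 1.70 in papilloma (SD, n = 4 and 3). That difference of 1.22 (SE 1.02, limma adjusted p = 1.0) was no larger than the spread within either type, and it was 1.49 in the untagged arrays but 0.15 in the GFP pair. Serpinb1a differed by 0.51 (SE 0.46), with 0.68 in untagged arrays and 0.13 in the GFP pair, and its lowest value by far was in papilloma 2. Serpinb9 differed by 0.49 (SE 0.67), with 0.40 in untagged arrays and 1.18 in the GFP pair. For Serpinb6a the difference was 0.26 (SE 0.24), and for Serpinb6e it was -0.49 (SE 0.58). Serpinb5, at 10.91 ± 0.98 in carcinoma and 10.72 ± 1.10 in papilloma (SD, n = 4 and 3), differed by 0.19 (SE 0.68), by 0.04 in untagged arrays and by 0.02 in the GFP pair, and on the mean of its probe sets the sign turned to -0.14. Serpinb8 likewise differed by 0.13 (SE 0.66), with -0.08 in untagged arrays.

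**Figure D5:**
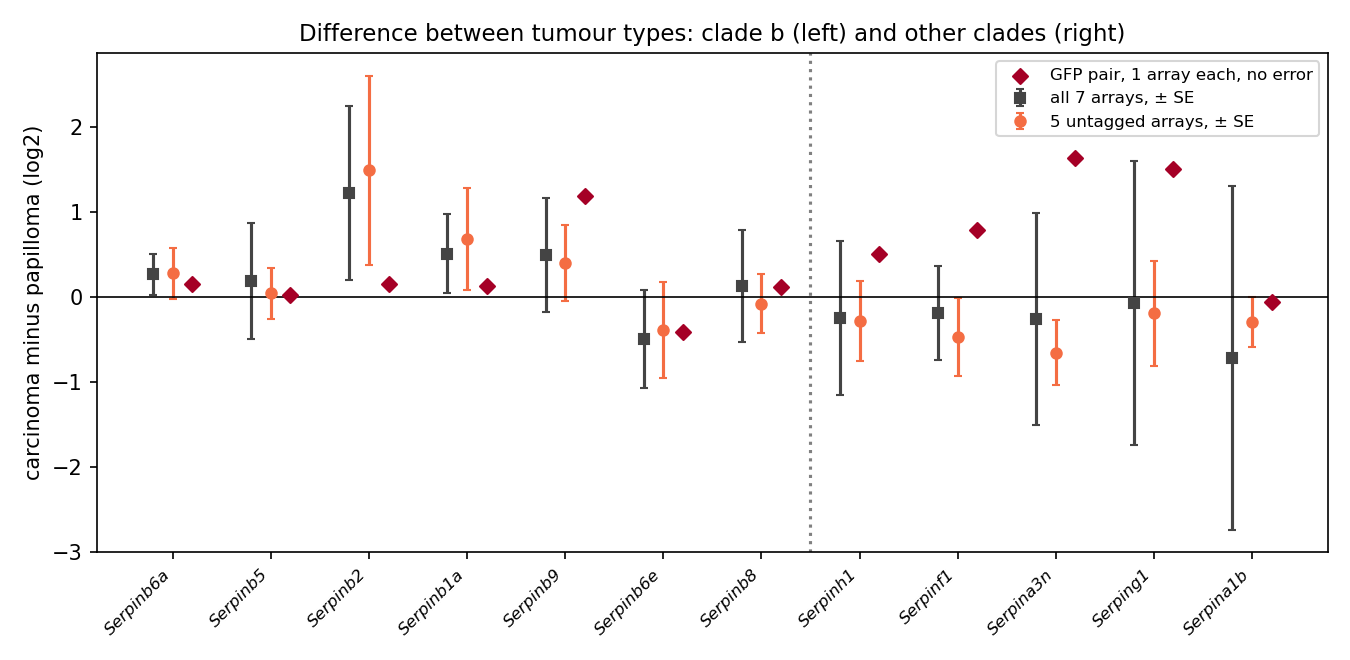
Difference between carcinoma and papilloma (log2, y axis) for the 12 members given in full, over all 7 arrays and over the 5 untagged arrays with bars of 1 standard error, and for the GFP pair without error since each type has 1 such array. Serpina3n, Serping1, Serpinf1, Serpinh1 and Serpinb8 lie above 0 in the GFP pair (1.63, 1.51, 0.78, 0.50 and 0.12). All of them lie below 0 in the untagged arrays. The median of all genes was 0.05 in the GFP pair and -0.046 in the untagged arrays. Serpinb2 has the largest pooled value at 1.22.

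Outside clade b, 21 of 22 members had a lower mean in carcinoma (median -0.15), beside 53.1% of all genes and 61.6% of the genes not above the median gene, where 18 of these members lie. No single difference was called, and the count depended on the arrays: it was 19 of 22 in untagged arrays alone, 10 of 22 in the GFP pair, and 14 of 22 without carcinoma 1 or without papilloma GFP. The share of all genes moved too, to 57.9%, 42.9%, 49.4% and 53.6% in the same order. Among genes not above the median gene it was 68.1%, 42.8%, 53.8% and 60.9%. For the brighter members the untagged arrays and the GFP pair are given apart. Serpina3n differed by -0.26 (SE 1.24) over all arrays, by -0.66 in untagged arrays and by 1.63 in the GFP pair. Serping1 differed by -0.07 (SE 1.67), by -0.19 in untagged arrays and by 1.51 in the GFP pair, and Serpinf1 by -0.19 (SE 0.55), by -0.47 and by 0.78 in the same order. Serpinh1 gave -0.25 (SE 0.90), with -0.29 in untagged arrays and 0.50 in the GFP pair, while Serpina1b gave -0.71 (SE 2.02) and -0.30 and -0.06. The single member whose 4 carcinoma arrays all lay below the 3 papilloma arrays was Serpina12, a dim gene at 4.79, 4.80, 4.87 and 4.62 in carcinoma against 4.89, 5.03 and 4.97 in papilloma, where 1.42% of all genes did not overlap. Its difference of -0.19 (SE 0.145, limma adjusted p = 1.0) was not called.

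Whether the tumour type difference itself depended on the tag was tested by an interaction term, which called 0 genes (0.0%) and held 389 genes at an unadjusted p under 0.05. Among these were 2 members, Serpina3n, whose tumour type difference was 2.29 (SE 0.70) larger in the GFP pair (limma adjusted p = 1.0, unadjusted p = 0.0184), and Serpinb6b. With limma's trend and robust settings 3 genes were called, none of them a serpin. Each tumour type held 1 GFP array, so the interaction rests on a single GFP pair that adds nothing to the estimate of spread. A lack of interaction calls therefore does not show that the tumour type difference was the same with and without the tag. The partner genes gave 0 calls by tumour type. Among them Ctsl read 11.98, 12.04, 11.88 and 11.52 in carcinoma against 11.46, 11.07 and 11.03 in papilloma, so its arrays did not overlap, with a difference of 0.67 (SE 0.20, limma adjusted p = 1.0). Tissue factor, encoded by F3, differed by 1.35 (SE 0.76), Plau by 1.03 (SE 1.15), Plod2 by 0.92 (SE 0.60) and the stefin Stfa3, a cysteine protease inhibitor, by -1.40 (SE 1.31), each with overlapping arrays and a limma adjusted p of 1.0.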

How the data were processed

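RNA was measured on Affymetrix Mouse Genome 430pm strip arrays after amplification. The deposited table holds log2 values that the authors normalized with RMA, per the labels' protocols; RMA and affy are the tools in the submitters' processing notes. The log2 scale was read from the values, which ran from 2.72 to 14.51, and versions and the chip definition were not given in the sources used here. Of 45101 probe sets, 64 were controls, 34945 had 1 gene symbol and 932 had several. Gene names rest on the platform annotation of the standard version of that design, and all 40 members matched RefSeq (GRCm38.p6) by gene identifier. A further 3 serpin probe sets with several symbols were left out, and 29 RefSeq genes whose symbols fit the rule are not analysed here. Array medians lay between 5.38 and 5.51. The number of arrays limits the precision.

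Groups came from the tumour type and titles in the labels. limma 3.58.1 (R 4.3.3, lmFit and eBayes) was fitted to all 18193 genes for tumour type, for tag with tumour type as covariate, and for their interaction, with Benjamini-Hochberg adjustment, and it was tested on simulated data. Members, lists and tests were chosen with earlier results of these data known. Members given in full were those called, the 5 with the largest difference in each fit per clade group among those above the median gene, and the brightest, which came to 12. From each partner list up to 4 genes by the GFP difference and up to 2 by the tumour type difference were named among those above the median gene, with Plau, Plat, Plaur, Ctsl and Col1a1. Same-numbered arrays of the tumour types share a label only, and their deviations correlated at 0.48, 0.19 and 0.86 for labels 1, 2 and GFP. Untagged arrays with different labels correlated at 0.21 to 0.68, so the values for labels 1 and 2 do not show pairing. A replicate block was run as an alternative. Other alternatives were probe set averaging, a filter at the median gene, array centring, quantile normalization, trend and robust eBayes, array weights, the tag as covariate, untagged arrays only and leaving out each array.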

Additional observations from a re-analysis of the deposited data

Results flagged for a closer look

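A gap test was applied to the 40 members within the 4 carcinoma arrays and within the 5 untagged arrays. It singled out an array in 5 of 80 tests, where chance gives about 1 in 20. The tests are not independent, since both groups hold the 3 untagged carcinomas. Serpina1b read 10.43 in carcinoma GFP, against 4.15 to 4.97 in the other carcinoma arrays. Papilloma GFP read 10.49, so this flag repeats the difference by tag given above and is not a separate result. Among untagged arrays, Serpina9 reached 5.92 in papilloma 2, against 3.85 to 4.44 elsewhere, and Serpinb9c reached 4.66 in the same array, against 4.29 to 4.34. Serpinb7, whose loss in humans gives a palmoplantar keratosis, read 5.77 in carcinoma 2, against 3.53 to 3.81 in the other carcinomas. Serpinf1 was low in carcinoma 1, at 8.74 against 9.92 to 10.19 in the other untagged arrays.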

How the results depend on the processing

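For tumour type 0 genes and 0 serpins were called under every setting run, the replicate block included, which changed no call. For the tag, array weights called 3520 genes higher and 3299 lower, with 5 clade b and 9 other serpins. Centring called 2442 lower and quantile normalization 2257 lower, so higher calls made up 41.9% and 48.6% instead of 60%, and the median of all genes moved to -0.29 and -0.12. The other clades' median became -0.22 with centring and 2.84 with the filter at the median gene, which called 1228 genes higher. Trend and robust eBayes gave 3 interaction calls. Leaving out each array in turn gave 637 to 2207 genes higher, 224 to 1748 lower, 0 to 3 clade b and 1 to 5 other serpins called. The lowest counts came without carcinoma GFP, and without papilloma GFP they were 1121 higher, 341 lower and 1 of clade b; without carcinoma 2, 946 genes were lower. These settings leave a single GFP array, assumed to vary like the others.

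Serpinb1a turned in the tag fit to -0.056 with array weights, -0.14 with centring and -0.028 with quantile normalization, and ran from -0.33 to 0.45 over left-out arrays. In the tumour type fit signs turned for Serpinb5 (-0.14) and Serpinb8 (-0.066) on mean probe sets, for Serpinb8 in untagged arrays (-0.078), for Serpina3n (0.079), Serpinb8 (-0.15), Serping1 (0.79) and Serpinh1 (0.12) with the replicate block, and for Serpina3n (0.015), Serpinb8 (-0.02) and Serping1 (0.31) with the tag as covariate. Over left-out arrays this fit ran from -2.20 to 1.19 for Serpina1b, -1.36 to 0.44 for Serpina3n, -0.042 to 0.93 for Serpinb1a, -0.43 to 0.66 for Serpinb5, -0.49 to 0.54 for Serpinb8, -0.01 to 0.90 for Serpinb9, -0.61 to 0.24 for Serpinf1, -1.41 to 1.15 for Serping1 and -0.94 to 0.40 for Serpinh1. The causes were not tested. A count of 0 by tumour type rests on 4 and 3 arrays, and the main fit left the difference by tag in the spread within each type.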
